A study of Mus musculus with 6 samples.

Results

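*Grb10* and 6 genes of the insulin and insulin-like growth factor (IGF) pathway on which its product acts were described in embryoid bodies (EBs), aggregates of differentiating mouse embryonic stem cells (mESCs). The 7 genes are *Igf2*, *Igf2r*, *Igf1r*, *Insr*, *Irs1*, *Irs2* and *Grb10*, all found by symbol among the 15266 genes listed. *Grb10* was picked from the measured values, because its counts differ between the 2 lines compared, and the other 6 were taken for their place in the pathway. The difference of *Grb10* between the lines is therefore given as a description, without a test.

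The 2 lines derive from W9.5 mESCs, and neither can make functional EVX1, a homeodomain factor of the primitive streak. The EVX1-Δfs line (clone 14) carries small frameshift mutations in both alleles of *Evx1*, which leave the antisense lncRNA *Evx1as* in place. The Del#3 line carries the deletion Evx1/Evx1asΔ2.6kb, made with a pair of guides. It takes out the promoter that *Evx1* and *Evx1as* share, the intronic promoter of *Evx1as* and some *Evx1as* exons. Few reads of either gene are left. Both lines were made by picking individual clones, EVX1-Δfs being clone 14 alone, so an effect of the edit and a difference between clones cannot be told apart. EBs were grown in serum without LIF and harvested at day 4 (D4), with 3 libraries of each line. Each side by side set-up had its own day. Replicate numbers were taken as these days, which no sample label states. No unedited W9.5 library was analysed here.

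Depth was 9024579 to 15699124 reads on listed genes per library. *Evx1* had 2582 to 4023 reads per EVX1-Δfs library and 28 to 48 per Del#3 library, and *Evx1as* (5730457N03Rik) had 571 to 879 and 21 to 30, which matches the labels. Of 36 marker genes looked for, all were listed. Primitive streak and nascent mesoderm markers summed to 7907 to 9895 normalized counts in EVX1-Δfs and 6711 to 9942 in Del#3, while *Sox1*, a defining neurectoderm marker, had at most 10.7 in any library. *Pou5f1*, a pluripotency factor, was still between 4444 and 7890 normalized counts across the 6 libraries. In such bulk samples, fewer cells of a type and less RNA per cell cannot be told apart.

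IGF2, insulin and IGF1 bind a pair of related tyrosine kinase receptors, encoded by *Insr* and *Igf1r*. The activated receptors phosphorylate the docking proteins IRS1 and IRS2, which recruit PI3K and so lead to AKT and mTOR. GRB10 is an adaptor with an SH2 domain that binds the activated receptors and holds their signal down, and it is itself a substrate of mTOR complex 1. IGF2R, the cation-independent mannose 6-phosphate receptor, carries IGF2 to the lysosome and does not pass on a growth signal. *Grb10*, *Igf2* and *Igf2r* are imprinted: in most mouse tissues *Igf2* is expressed from the paternal allele, and *Igf2r* and *Grb10* from the maternal allele, with paternal *Grb10* expression in neurons.

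*Grb10* lies on the minus strand of chromosome 11 of NCBIM37 (mm9), from 11830511 to 11938686, with 12 annotated transcripts in GENCODE. The deposited counts are 1 value per gene, over transcripts that the sources used here do not list, so the start of transcription used in each line was not resolved. RefSeq places its promoter windows at 2 starts, and the 250 bases before each are given as the annotated promoters of the gene whose reads separate the lines. They are written 5′ to 3′ on the strand of the gene, with each CG dinucleotide, the base step that carries DNA methylation, in capitals. The upstream window (chr11:12037421-12037670 in GRCm38.p6, chr11:11937424-11937673 in NCBIM37) ends just before the start of 4 GENCODE transcripts, and the downstream one (chr11:12027972-12028221 in GRCm38.p6, chr11:11927975-11928224 in NCBIM37) before that of 1. The other 7 transcripts start elsewhere, 1 of them upstream of both windows.
Grb10 upstream window: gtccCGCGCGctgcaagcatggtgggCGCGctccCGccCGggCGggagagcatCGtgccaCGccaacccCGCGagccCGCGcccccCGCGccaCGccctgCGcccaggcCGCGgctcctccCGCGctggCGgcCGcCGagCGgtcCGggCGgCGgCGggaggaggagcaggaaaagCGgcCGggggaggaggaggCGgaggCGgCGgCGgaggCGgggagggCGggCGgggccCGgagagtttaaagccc
Grb10 downstream window: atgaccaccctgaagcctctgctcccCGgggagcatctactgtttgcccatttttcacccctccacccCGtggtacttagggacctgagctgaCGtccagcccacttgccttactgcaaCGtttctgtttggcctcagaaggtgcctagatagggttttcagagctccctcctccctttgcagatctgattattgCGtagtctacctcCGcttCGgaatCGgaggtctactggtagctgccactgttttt

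The upstream window holds 40 CG dinucleotides, and 1.31% of the 32851 RefSeq windows of this length hold at least as many. The downstream window holds 8, a number that 43.0% of windows reach. The search was for the letters CG, which read the same on both strands. Among the other members in the RefSeq table, the window of *Igf1r* held 42, that of *Irs2* 34, that of *Irs1* 28 and that of *Igf2r* 27, while the 4 windows of *Igf2* held 1 to 22. Methylation was not measured here.

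Of the other members, *Igf2* lies at chr7:149836673-149852721 on the minus strand of NCBIM37, and *Igf1r* on the same chromosome at chr7:75097713-75371484 on the plus strand. *Igf2r* lies at chr17:12875272-12962530, *Insr* at chr8:3150922-3279617, *Irs2* at chr8:10986980-11008458 and *Irs1* at chr1:82229676-82287991, all on the minus strand. *Igf2*, *Irs1* and *Irs2* share exon bases with an annotated gene on the opposite strand (for *Igf2* this is *Igf2as*), and the split of reads was not checked. Per the study's methods HTSeq was run as it comes, which counts by strand.

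*Grb10* was higher in every Del#3 library than in any EVX1-Δfs library. In EVX1-Δfs, *Grb10* had 895, 631 and 798 normalized counts in replicates 1 to 3, from 1356, 538 and 675 reads. In Del#3, *Grb10* had 3348, 1796 and 2646, from 4201, 1547 and 2478 reads. The lowest Del#3 library was thus 2.01 times the highest EVX1-Δfs library. By mean, *Grb10* was 3.35-fold higher in Del#3, and within pairs of the same replicate number the difference was 1.90, 1.51 and 1.73 on the log2 scale. The libraries of a line spread less than this, by up to 1.42-fold in EVX1-Δfs and 1.86-fold in Del#3. *Grb10* was 1 of the 7 members whose lines did not overlap with Del#3 above, as 1.71% of the 12891 genes tested did, and it is the member that was picked for it.

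**Figure D1:**
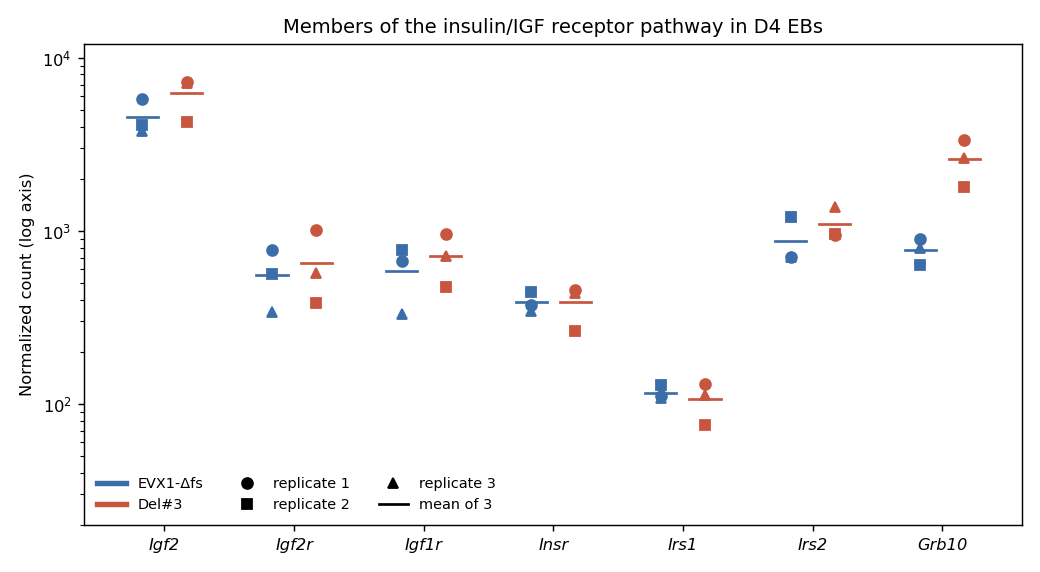
Normalized counts of the 7 genes on a log axis, with 1 point per library, marker shapes for replicate numbers 1 to 3, and bars for the mean of 3 libraries. For *Grb10* the Del#3 points lie between 1796 and 3348 and the EVX1-Δfs points between 631 and 895, while for the other 6 genes the points of the lines overlap.

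*Igf2*, the ligand, was the most abundant of the 7 genes. The normalized counts in order of replicate number were 5810, 4068 and 3786 for EVX1-Δfs, against 7245, 4274 and 7141 for Del#3. Del#3 replicate 2 lay below EVX1-Δfs replicate 1, so that the lines overlapped, although *Igf2* was higher in Del#3 in 3 of 3 pairs, as 12.1% of all genes were. The log2 fold change of *Igf2*, here and below Del#3 against EVX1-Δfs by limma on log2(normalized count + 1), was 0.44 (standard error 0.28, 95% interval -0.19 to 1.06, adjusted p = 1.00 with Benjamini-Hochberg adjustment). Of all genes tested, 13.1% were at least as far from 0.

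*Igf2r*, the clearance receptor, varied more within lines than between them. It had 770, 565 and 339 normalized counts in EVX1-Δfs and 1007, 383 and 571 in Del#3. The highest library of each line was replicate 1, and the ranges of the lines overlapped. The log2 fold change was 0.19 (standard error 0.39, 95% interval -0.68 to 1.06, limma adjusted p = 1.00).

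The receptor kinases gave no call either. *Igf1r* had 667, 771 and 331 normalized counts in EVX1-Δfs and 956, 474 and 720 in Del#3, with a log2 fold change of 0.31 (95% interval -0.50 to 1.12). *Insr* had 375, 445 and 345 in EVX1-Δfs and 457, 262 and 439 in Del#3, with a log2 fold change of -0.043 (95% interval -0.67 to 0.59). Both receptor genes were lower in Del#3 in pair 2 and higher in pairs 1 and 3.

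The docking protein genes overlapped between the lines as well. *Irs1* had 112, 129 and 108 normalized counts in EVX1-Δfs and 131, 75.5 and 113 in Del#3, and its log2 fold change was -0.15 (95% interval -0.85 to 0.54). *Irs2* had 709, 1198 and 707 in EVX1-Δfs and 941, 961 and 1369 in Del#3, and its log2 fold change was 0.35 (95% interval -0.28 to 0.97). As in the receptor genes, both were lower in Del#3 in pair 2 and higher in the other pairs.

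Of the 6 members other than *Grb10*, 0 passed an adjusted p of 0.05 between the lines by limma, where 0.0155% of all genes did, and 0 had an unadjusted p under 0.05, where 1.03% did. DESeq2's Wald test and edgeR's quasi-likelihood test on the recovered reads also called 0 of the 6, beside 0.0233% and 0.0155% of all genes. Limma fitted with a replicate block called 0 of them beside 0.0233% of all genes, and 0 had an unadjusted p under 0.05, beside 4.62%. The 95% intervals of *Insr*, *Irs1* and *Irs2* stayed inside a 2-fold change both ways, and those of *Igf2*, *Igf2r* and *Igf1r* reached past 2-fold higher in Del#3. Under the replicate block, 5 of the 6 intervals stayed inside a 2-fold change, the exception being *Igf1r*. The limma adjusted p was 1.00 for each of the 6. These misses do not show that the lines express the 6 genes alike.

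**Figure D2:**
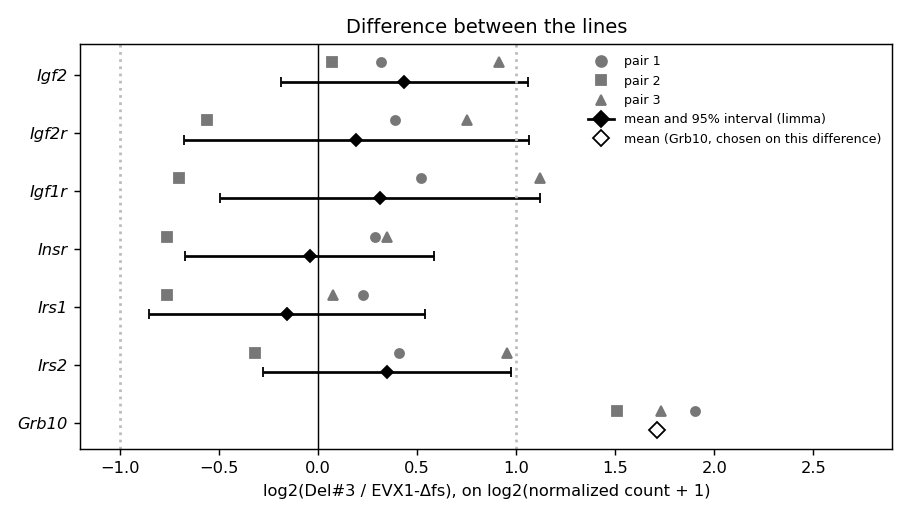
Difference between the lines for each gene as log2(Del#3 / EVX1-Δfs), with grey points for the 3 pairs of the same replicate number, black diamonds for the mean and bars for limma's 95% interval (none for *Grb10*), and dotted lines at a 2-fold change. The intervals of the 6 genes other than *Grb10* include 0, and the *Grb10* pairs lie between 1.51 and 1.90.

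Ratios within a library are given as a description, and those with *Grb10* carry the difference it was chosen for. Per kilobase of exon, the ratio of *Grb10* to *Insr* was 1.49 to 2.52 in the EVX1-Δfs libraries and 6.36 to 7.72 in the Del#3 libraries. The ratio of *Grb10* to *Igf1r* was 0.399 to 1.18 and 1.71 to 1.85 in the same order. Ligand to clearance receptor, *Igf2* to *Igf2r*, was 12.4 to 19.2 in EVX1-Δfs and 12.4 to 21.5 in Del#3, and here the lines overlapped. The ratio of *Igf1r* to *Insr* was 2.07 to 3.84 in EVX1-Δfs and 3.54 to 4.52 in Del#3, also with overlap.

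Levels of different genes were compared as RPKM, the reads per kilobase of annotated exon scaled to the reads on listed genes. *Igf2* came first with 93.6 ± 31.5 (SD, n = 6 libraries of both lines), a level above 95.5% of the genes with a known length. *Irs2* followed with 23.1 ± 6.51, *Grb10* with 17.7 ± 12.5 and *Igf1r* with 14.0 ± 5.42 (SD, n = 6 each). *Igf2r* had 6.17 ± 2.89, *Insr* 3.81 ± 0.902 and *Irs1* 1.16 ± 0.254 (SD, n = 6 each), so that *Irs2* exceeded *Irs1* in level per length by 14.5 to 28.9 times in single libraries. *Igf2* at the top and *Irs1* at the bottom did not overlap in any library with their neighbours in this order. The ranges of *Igf1r* with *Igf2r*, and of *Igf2r* with *Insr*, overlapped in both lines. Within every single library, though, *Igf1r* was above *Igf2r* and *Igf2r* above *Insr*. In EVX1-Δfs replicate 3 the values of *Igf2r* and *Insr* were close, at 3.19 and 3.16.

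The place of *Grb10* in that order differed between the lines. In EVX1-Δfs its level per length was 7.88 ± 1.47 (SD, n = 3), below *Irs2* in every library and overlapping with *Igf1r* at 12.4 ± 5.16. In Del#3 it was 27.5 ± 10.1 (SD, n = 3), overlapping with *Irs2* at 25.9 ± 5.91. The annotated models of *Irs2* and *Igf1r*, at 4024 and 4476 bp, may lack part of the 3′ end, which could make their levels per length and the *Irs2* to *Irs1* ratio too high, so their places against *Grb10* are approximate. These levels rest on the exon length, which for *Grb10* is 9164 bp over all transcripts and 5061 bp for the longest. With the longest transcript, *Grb10* had 14.3 in EVX1-Δfs and 49.7 in Del#3 and took the second place over both lines, although in EVX1-Δfs it remained below *Irs2* at 20.2.

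**Figure D3:**
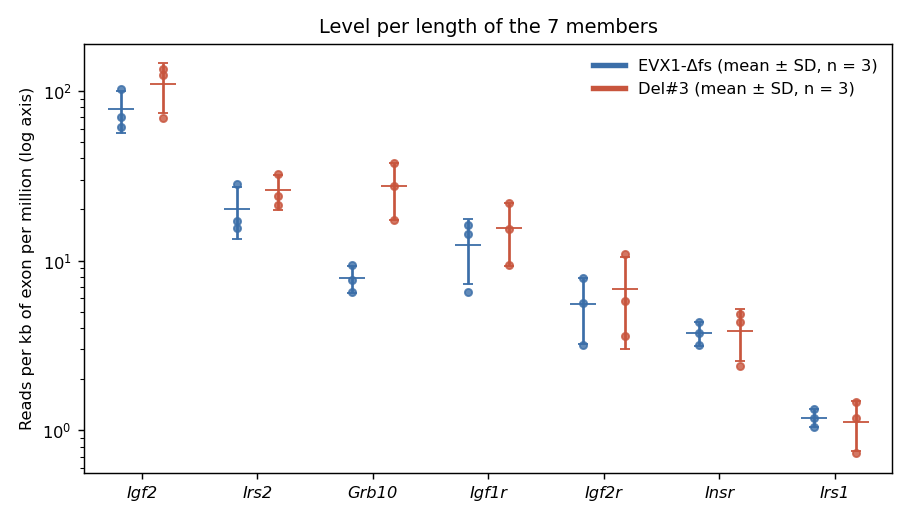
RPKM on a log axis for the 7 genes in the order of their mean over 6 libraries, with points for libraries and bars for the mean ± SD of 3. *Igf2* lies above and *Irs1* below the rest, and *Grb10* is at 7.88 in EVX1-Δfs and 27.5 in Del#3.

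Differentiation days were compared as a second contrast, which did not enter the choice of *Grb10*. Averaged over both lines, *Grb10* was 0.70 higher on the log2 scale on the day of replicate 1 than on that of replicate 2, and 0.25 higher than on that of replicate 3. *Igf2r* was 0.92 and 1.00 higher on the first of these days than on the other two. The replicate 1 libraries were also the deepest, with 15699124 reads on listed genes in EVX1-Δfs and 12231851 in Del#3, against 9024579 to 9802928 in the others. For replicate 1 against the rest, day and depth therefore cannot be told apart. By limma's F test with the line in the model, the adjusted p was 0.128 for *Grb10* and 0.120 for *Igf2r*. Of the 7 genes, 0 were called between days, beside 4.24% of all genes, and 2 had an unadjusted p under 0.05, beside 27.7%. edgeR's quasi-likelihood test also called 0, beside 3.58% of all genes, with 2 at an unadjusted p under 0.05, beside 26.9%.

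That count depended on single libraries. Without EVX1-Δfs replicate 2, limma called 3 genes between days (*Grb10*, *Igf1r* and *Igf2r*), beside 17.1% of all genes. Without Del#3 replicate 2, and without Del#3 replicate 3, it called *Igf1r* and *Igf2r*, beside 11.6% and 25.2% of all genes. Without EVX1-Δfs replicate 3 it called *Igf2r* alone, beside 18.97%. In these fits 1 library stands alone for its day and is assumed to vary like the rest.

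Within lines, *Igf2r* and *Igf1r* were the most variable members, with pooled SDs of 0.65 and 0.58 on the log2 scale, beside a median of 0.38 over all genes tested and 0.37 for *Grb10*. Libraries also differed in how far long transcripts were represented. The median deviation of the 3925 tested genes with at least 5 kb of exon from their own mean was highest in Del#3 replicate 1, at 0.26 on the log2 scale, and lowest in Del#3 replicate 2, at -0.13, beside -0.13 in EVX1-Δfs replicate 3. *Igf2r* was at 0.83 in Del#3 replicate 1 and at -0.74 in EVX1-Δfs replicate 3, and *Igf1r*, whose model is shorter at 4476 bp, at 0.63 and -0.90. *Grb10* was at 1.27, 0.37 and 0.93 in Del#3 replicates 1 to 3, against long-gene medians of 0.26, -0.13 and 0.08. After a correction of each library for exon length, chosen after seeing the data, the *Grb10* difference between the lines was 1.51. The log2 fold changes of *Igf2*, *Igf1r* and *Irs2* were then 0.34, 0.25 and 0.31, that of *Igf2r* was -0.012, and those of *Insr* and *Irs1* lay farther from 0 than before, at -0.25 and -0.35. After the correction, 0 of the 7 members had an unadjusted p under 0.05 between days by limma, beside 29.9% of all genes. With this correction limma called 0 of 12130 genes between days, members included. The part of this in the differences between days and lines was not tested further.

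**Figure D4:**
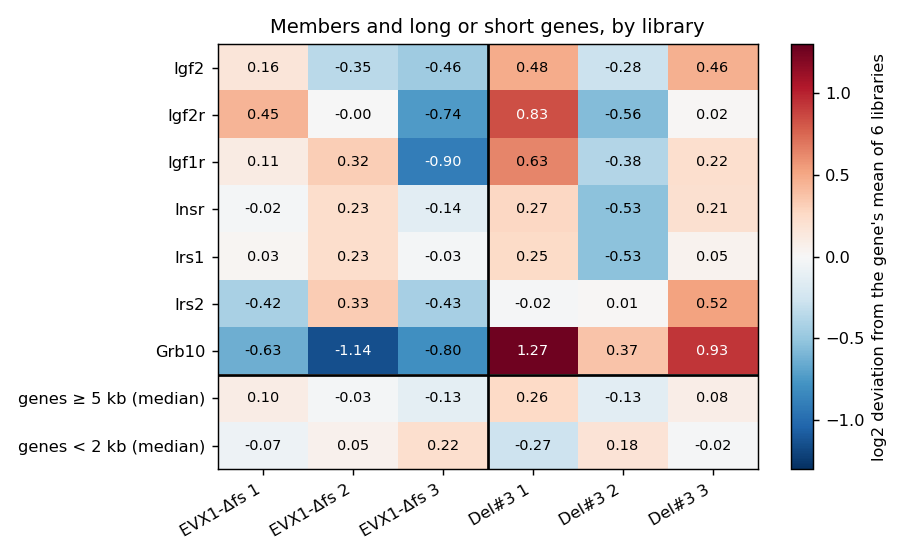
Deviation of each gene from its mean over the 6 libraries, on the log2 scale by color and number, with the medians of genes of at least 5 kb and under 2 kb of exon below. *Grb10* is negative in the 3 EVX1-Δfs libraries and positive in the 3 Del#3 libraries, and the long-gene medians range from -0.13 to 0.26.

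The rest of the pathway was read from 7 lists holding 121 genes, of which 111 were listed and 104 passed the filter on low counts. Between the lines, limma called 0 of the 104, beside 0.0155% of all genes, and 0 had an unadjusted p under 0.05, beside 1.03%. DESeq2's Wald test and edgeR's quasi-likelihood test called 0 as well, beside 0.0233% and 0.0155%. With the replicate block, limma called 0 and 4 had an unadjusted p under 0.05, beside 4.62% of all genes, of which *Rictor*, *Rps6kb1* and *Braf* were higher in Del#3 and *Rheb* lower. The median log2 fold change of the 104 genes was 0.077, beside 0.0022 over all genes tested, and 66 were above 0, beside 50.4% of all genes. Genes of at least 5 kb of exon had a median of 0.093.

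Ligands and binding proteins other than *Igf2* had a median log2 fold change of 0.060 over 8 genes. *Igf1*, the other IGF ligand, was near the limit of these libraries, with 10 to 23 reads, while *Ins1* and *Ins2* were not among the genes analysed here. *Igfbp2* and *Igfbp4*, which encode proteins that bind IGFs outside the cell, were the most abundant per length, with 130 and 121 RPKM. *Igfbp5*, another of this family, had the largest difference of the list, with a log2 fold change of 0.53 (95% interval -0.47 to 1.53).

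Adaptors and inhibitors at the receptor had a median log2 fold change of 0.024 over 28 genes. *Grb7* and *Grb14* encode the other adaptors of the *Grb10* family. *Grb7* had 734 to 1045 normalized counts in EVX1-Δfs and 832 to 1169 in Del#3, with a log2 fold change of 0.081 (95% interval -0.47 to 0.63). *Grb14* had 109 to 117 and 84.5 to 132, with a log2 fold change of -0.12 (95% interval -0.78 to 0.55). For both, the lines overlapped and the interval stayed inside a 2-fold change. *Nedd4*, the ubiquitin ligase known to bind GRB10, was the most abundant of the list per length, at 236 RPKM. Its log2 fold change was 0.093 (95% interval -0.60 to 0.78). *Dok4*, a docking protein, followed at 61.0 RPKM. *Irs4*, another docking protein of the IRS family, had a log2 fold change of 0.35 (95% interval -0.50 to 1.20, limma adjusted p = 1.00).

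Downstream of the docking proteins, the PI3K and AKT list had a median log2 fold change of 0.11 over 21 genes. Its differences were largest for *Pik3ca*, a catalytic subunit of PI3K, at 0.31 (95% interval -0.31 to 0.93) and *Inpp5d*, a lipid phosphatase, at -0.28 (95% interval -1.23 to 0.68). *Foxo4* and *Gsk3a*, which encode targets of AKT, were the most abundant per length, with 131 and 67.8 RPKM. No gene of the list separated the lines, beside 1.71% of all genes with every Del#3 library above and 1.80% with every Del#3 library below.

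The mTOR list had a median log2 fold change of 0.13 over 17 genes, and the list of the RAS and ERK arm one of 0.042 over 12. *Rictor*, a subunit of mTOR complex 2, had 23.6 to 103 normalized counts in EVX1-Δfs and 54.5 to 199 in Del#3. Its log2 fold change was 1.05 (95% interval -0.34 to 2.45, limma adjusted p = 1.00), with an adjusted p of 0.693 under the replicate block. *Braf*, a kinase of the ERK arm, had 199 to 463 and 366 to 779, with a log2 fold change of 0.72 (95% interval -0.096 to 1.54, limma adjusted p = 1.00) and the same adjusted p under the block. *Rps6kb1* and *Rasa1* had 0.52 and 0.64 on the same scale. The libraries of the lines overlapped in each of *Rictor*, *Braf*, *Rps6kb1* and *Rasa1*. Within pairs of the same replicate number, however, *Rictor* was higher in Del#3 by 0.95, 1.05 and 1.17 on the log2 scale and *Braf* by 0.75, 0.87 and 0.55. *Rps6kb1* was also higher in 3 of 3 pairs, by 0.22 to 0.92, and *Rasa1* in 2 of 3. *Rheb*, which encodes the GTPase that activates mTOR complex 1, was lower in Del#3 in 3 of 3 pairs, with differences of -0.56, -0.22 and -0.43. Of all genes tested, 12.1% were higher and 10.99% lower in Del#3 in 3 of 3 pairs. *Rps6*, *Eif4ebp1*, *Mapk3* and *Map2k1*, the most abundant of the lists per length, had log2 fold changes of -0.21, -0.14, 0.0059 and 0.036.

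Partners of IGF2R in mannose 6-phosphate sorting had a median log2 fold change of 0.095 over 10 genes. *M6pr*, the cation-dependent mannose 6-phosphate receptor, had a log2 fold change of -0.19 (95% interval -0.77 to 0.39). *Vps35*, a subunit of the retromer, had 0.52 (95% interval -0.28 to 1.32), and *Gnptg* had -0.20. Here too the lines overlapped, beside 1.71% of all genes with every Del#3 library above and 1.80% with every Del#3 library below.

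**Figure D5:**
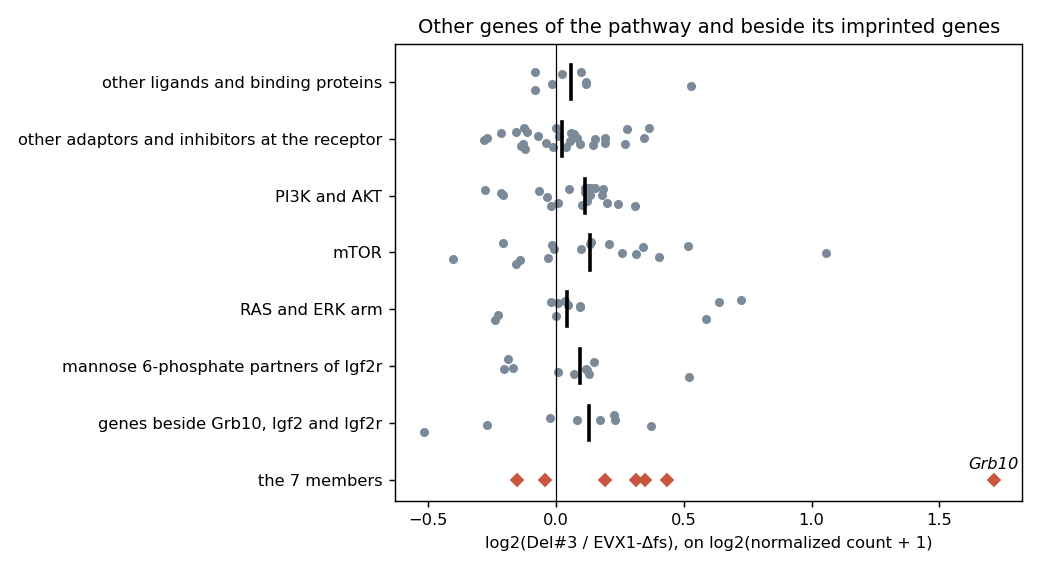
Log2 fold change of Del#3 against EVX1-Δfs for the 104 tested genes of 7 lists, with 1 point per gene and a black bar at the median of each list, above the 7 members as diamonds. The listed genes lie between -0.52 and 1.05, and *Grb10* lies at 1.71.

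Genes beside the 3 imprinted members were described next to them. *Ddc*, next to *Grb10* and also known to be imprinted, had 28.1 to 41.6 normalized counts in EVX1-Δfs and 14.3 to 33.7 in Del#3, with a log2 fold change of -0.52 (95% interval -1.48 to 0.45). *Cobl* on the other side had -0.022 (95% interval -1.14 to 1.09). *Fignl1* and *Ikzf1*, beyond *Ddc*, had 0.17 and 0.37. None of these 4 neighbours was called by limma, beside 0.0155% of all genes. None separated the lines, beside 1.71% of all genes with every Del#3 library above and 1.80% with every Del#3 library below. *Ddc*, *Cobl* and *Ikzf1* also had at most 83 reads in any library.

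*H19*, the maternally expressed lncRNA that shares enhancers with *Igf2*, had 32781 to 39051 normalized counts in EVX1-Δfs and 31975 to 47879 in Del#3. Its log2 fold change was 0.083 (95% interval -0.50 to 0.66). The other neighbours of *Igf2* had values of -0.27 for *Mrpl23*, 0.23 for *Tnnt3* and 0.23 for *Lsp1*. *Airn*, the lncRNA antisense to *Igf2r* that silences it on the paternal allele, had 0 to 12 reads per library, and *Slc22a3*, *Mas1* and *Plg* had 0 to 13, so that no difference was detectable at this depth.

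Genes were also ranked by how closely their values followed those of *Grb10* over the 6 libraries, among 9123 genes with a mean of at least 100 normalized counts. Closest were *Steap2* (Pearson's r = 0.96), *Atf2* (0.96), *Dhx36* (0.95), *Rsbn1l* (0.95) and *Zc2hc1a* (0.95). *Grb10* was chosen because it differs between the lines, so genes ranked by likeness to it tend to differ in the same way. In each of these genes every Del#3 library was above every EVX1-Δfs library, as in 1.71% of all genes tested. Their differences between the lines were smaller, from 0.39 to 0.77 on the log2 scale against 1.71 for *Grb10*. For *Igf2*, the closest were *Adam10*, *Nkrf*, *Fmnl2*, *Slc4a4* and *Sbno1*, with r from 0.984 to 0.995. These correlations are over 6 libraries that differ in line, day and depth, and the part of each was not tested.

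Markers of other cell types that EBs can hold were read beside *Grb10*. Summed over 11 genes, markers of visceral and definitive endoderm were 5030 to 5324 normalized counts in EVX1-Δfs and 4280 to 4980 in Del#3, so that the sums did not overlap, while by mean 6 of the 11 genes were higher in Del#3 and 5 lower. *Cer1*, with means of 2222 and 1834, and *Sox17*, with 762 and 601, made up most of the lower sum in Del#3, whereas *Ttr* had 29.3 and 49.1. Of the 11, *Sox17* alone had every Del#3 library below every EVX1-Δfs library, as 1.80% of all genes tested did. The 6 haemato-endothelial markers summed to 2958 to 3739 and 2552 to 3921. By mean 5 of these 6 were higher in Del#3, with a median log2 fold change of 0.051, while *Kdr* was lower, with means of 1736 and 1666. The 6 markers of undifferentiated ES cells summed to 9330 to 10044 and 7637 to 10595. Of the ES cell markers, 5 of 6 were lower in Del#3 by mean, with a median log2 fold change of -0.19, and *Zfp42*, at 341 to 457 and 181 to 288, had every Del#3 library below every EVX1-Δfs library. Neurectoderm markers summed to 1053 to 1840 and 899 to 1525 over 5 genes, nearly all of it from *Sox2* and *Otx2*. Of the 36 markers, 31 passed the filter on low counts, and of these limma called 0 between the lines, beside 0.0155% of all genes, and 1 (*Zfp42*) had an unadjusted p under 0.05, beside 1.03%. Their part in the *Grb10* difference was not tested.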

How the data were processed

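mRNA-seq of D4 EBs was analysed in 6 libraries. Per the study's methods and labels, reads from the Ion Proton instrument were aligned on mm9 (TopHat2, then TMAP) and counted by gene with HTSeq. The authors deposited a signal per gene and library, namely counts divided by a size factor. All values (100%) were whole multiples of 1 step per library within 0.01 of a read, so reads were recovered. The annotation used is not given in the sources used here, and GENCODE on NCBIM37 gave exon lengths for 93.4% of listed genes. The 2 rows that share a symbol turned into a date name no gene here.

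Lines and days were compared with limma (3.58.1, R 4.3.3) on log2(normalized count + 1) with a variance trend, over 12891 genes passing filterByExpr of edgeR (4.0.16) at a minimum count of 10, with Benjamini-Hochberg adjustment over all of them at 0.05. The main model had no block. The study used DESeq2 at its standard settings. The series' design text gives each side by side set-up its own day, and replicate numbers were taken as these set-ups, which no sample label states. Deviations of same-numbered libraries correlated across genes at 0.74, 0.32 and -0.05. p-values measure the spread between these libraries.

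Alternatives were pseudocounts of 0.1 and 5, no filter, a minimum of 10 reads per library, scaling by total reads or TMM, DESeq2 (1.42.0) and edgeR on recovered reads, the replicate block, each library left out, the longest transcript for length and, added after the data were seen, an exon length correction (loess, span 0.3). Methods were tested on simulated data. The members and gene lists were chosen with earlier results of these data known. Genes named were the members, *Evx1*, *Evx1as*, the *Grb7* family, neighbours of imprinted members, per list the 2 largest differences and 2 highest levels per length, and the 5 genes closest to *Grb10* and to *Igf2*. Other genes were named after their values were seen. A gene that this rule names is not reported here. Promoter windows came from RefSeq on GRCm38.p6 and were matched to NCBIM37 over 250 bases.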

Additional observations from a re-analysis of the deposited data

How the results depend on the processing

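Under 17 alternatives, 0 of the 6 members other than *Grb10* and 0 of the other pathway genes were called between the lines, with adjusted p from 0.992 to 1.00 for the members and from 0.332 (DESeq2 with the replicate block) to 1.00 for the lowest of the pathway genes. The *Grb10* difference lay between 1.51 and 1.96 in the 17. It was positive in all of them, but this was largely fixed in advance, as *Grb10* was chosen on it. A filter or limma's block leaves a mean difference unchanged, and no single library left out can reverse lines that do not overlap. The difference moved by more than 1 SD of the pair differences (0.197) with the exon length correction (1.51, still within the range of the pairs) and on leaving out single libraries, which gave 1.51 without Del#3 replicate 1 and 1.96 without Del#3 replicate 2. With the replicate block in DESeq2 it was 1.72, and the block changed no call for the members tested. The sign was not stable for *Igf2r*, whose log2 fold change ran from -0.18 to 0.52, *Igf1r* (-0.059 to 0.58), *Insr* (-0.25 to 0.21) and *Irs1* (-0.35 to 0.073), none of which was called. *Igf2* (0.30 to 0.69) and *Irs2* (0.17 to 0.60) stayed above 0. Between days, 0 members were called in the main test and from 0 to 3 when each library was left out. The longest transcript in place of all exons kept 5 of 7 members in their place in the order of levels. Counts per gene do not resolve transcripts or alleles, and the precision is set by 3 libraries of each line.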
